A study of Mus musculus with 6 samples.

Results

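The adult globin genes Hba-a1, Hba-a2, Hbb-bs and Hbb-bt and the red cell haem enzyme gene Alas2 were followed through the prostates of mice treated with testosterone and oestradiol, to judge how much red cell RNA each sample held. The 5 genes were taken by symbol from the 34745 genes of the deposited table, and each symbol occurred on a single row. RNA was sequenced from prostate tissue of male mice of the C57BL/6 background, young adults at the start. The 3 mice of the T + E2 group each carried a slow-release pellet of testosterone and estradiol under the skin, exchanged for a new one every month over 12 weeks, and the 3 mice of the CON group had a skin incision that was closed again, with no hormone. Neither group carried a transgene, and each library came from a separate mouse. Whether blood was rinsed from the vessels before the prostate was taken is not given in the sources used here.

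Haemoglobin carries oxygen as a tetramer of alpha and beta globin chains, each holding a haem group. Red cell precursors in the bone marrow make the globin transcripts, and reticulocytes, the youngest circulating red cells, still carry them after the nucleus is lost. Alas2 encodes the red cell form of the enzyme that starts haem synthesis, while Alas1 encodes the form used in other tissues. In organs that make no red cells, globin transcripts are commonly read as a measure of blood in the sample.

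The table held 14819273 to 16026544 counts per CON mouse and 14816146 to 16555549 per T + E2 mouse, and 15580 genes passed the filter on low counts, all 5 red cell genes among them. A count of 3, taken as the detection limit, equals 0.183 to 0.208 CPM (counts divided by the TMM-scaled library total in units of 1e+06) in these libraries. Markers of prostate epithelium were abundant in every mouse, with a summed level of 37107 to 50751 CPM in the CON group and 12397 to 15175 CPM in the T + E2 group. In that list Tgm4 and Pbsn, which encode secretory products, fell by 2.91 and 3.29 on the log2 scale, and Msmb, a further secretory product, rose by 1.10. Libraries of the T + E2 group were not alike in the red cell genes, since replicate 2 stood far above replicates 1 and 3. The changes of the red cell genes, their sum and their ratios are given with and without that mouse. So are the changes of blood list genes called by edgeR after the filter, but not of those called only by DESeq2 or without the filter.

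Both pairs of globin genes are near-copies, which limits how well their counts can be separated, so the coding bases that tell them apart are shown here. The alpha pair has coding sequences of 429 bases that differ at a single position, written C381T for Hba-a1 against Hba-a2, with positions counted from 1 at the A of the start codon. The capital letter marks that base in reference sequence of build GRCm38, at chr11:32284313-32284373 for Hba-a1 and chr11:32297130-32297190 for Hba-a2, both on the plus strand in exon 3.
Hba-a1: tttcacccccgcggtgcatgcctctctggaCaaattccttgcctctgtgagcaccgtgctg
Hba-a2: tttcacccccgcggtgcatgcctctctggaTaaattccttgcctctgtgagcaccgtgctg

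The beta pair has coding sequences of 444 bases, again with a single difference, C417T for Hbb-bs against Hbb-bt. The bases around it lie at chr7:103826665-103826722 for Hbb-bs and chr7:103812656-103812713 for Hbb-bt, both on the minus strand in exon 3.
Hbb-bs: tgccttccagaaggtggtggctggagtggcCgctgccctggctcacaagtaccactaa
Hbb-bt: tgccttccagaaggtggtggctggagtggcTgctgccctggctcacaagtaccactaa

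Of the windows of 100 bases along the first annotated transcript of Hba-a1, 56.5% also occur in that of Hba-a2, and 74.5% in the other direction. For the first annotated transcript of Hbb-bs, 62.6% of such windows occur in that of Hbb-bt, and 54.8% in the other direction. How the authors' counting treated reads that match both copies is not given in the sources used here, so the split within a pair is uncertain and the sum over a pair is the firmer value.

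The promoters of these genes are shown because all 5 genes moved together, taken from RefSeq on build GRCm38.p6 as the 100 bases before the annotated start. Capitals mark 4 short motifs read on either strand. GATA is the core bound by the red cell factor Gata1, CACCC the core bound by Klf1, CCAAT a general promoter element and TATAA the core of the TATA box. Hba-a1 is left out, because its promoter is identical to that of Hba-a2 over 297 aligned bases, with the annotated start shifted by 3 bases. The windows lie at chr11:32296392-32296491 (plus strand), chr7:103827929-103828028 and chr7:103813924-103814023 (minus strand), and chrX:150547317-150547416 (plus strand), in the order printed.
Hba-a2: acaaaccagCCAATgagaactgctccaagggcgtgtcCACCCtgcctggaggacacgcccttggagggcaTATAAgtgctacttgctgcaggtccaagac
Hbb-bs: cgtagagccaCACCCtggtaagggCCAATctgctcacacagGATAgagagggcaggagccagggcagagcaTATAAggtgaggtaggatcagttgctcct
Hbb-bt: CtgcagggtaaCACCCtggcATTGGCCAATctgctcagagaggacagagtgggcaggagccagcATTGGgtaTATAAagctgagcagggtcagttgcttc
Alas2: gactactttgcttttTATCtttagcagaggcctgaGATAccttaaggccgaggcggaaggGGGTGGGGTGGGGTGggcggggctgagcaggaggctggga

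The first capital of the Hbb-bt line is the last base of a CACCC that begins at -104, counted from the start. In the printed windows the globin promoters share an order, with CACCC or CCAAT upstream and TATAA beginning between -30 and -28. In Hba-a1, which is not printed, TATAA begins at -27. Within these 100 bases CCAAT comes before CACCC in the alpha genes, and CACCC comes first in the beta genes, while the alpha genes hold a further CACCC upstream, at -167 in Hba-a1 and -170 in Hba-a2. Alas2 has no TATAA in the printed window and holds 3 adjoining CACCC on the opposite strand. Over the wider window of 300 bases (250 before and 50 after the start), GATA occurred in 5 of 5 of these promoters against 57.9% of 32851 promoters, CACCC in 5 of 5 against 57.5%, CCAAT in 4 of 5 against 37.4% and TATAA in 5 of 5 against 24.9%. All 4 motifs occurred together in 4 of 5 against 3.16% of promoters. Hba-a1 and Hba-a2 are counted separately here, although their promoters are identical over 297 aligned bases. The TATAA counted for Alas2 lies at -207 on the gene strand and -208 on the opposite strand, outside the printed window. These are matches of letters only, and no binding was measured.

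All 5 red cell genes were higher in T + E2 mice, and no T + E2 mouse overlapped with a CON mouse in any of them. All 5 rose by the criteria for DEGs (edgeR's quasi-likelihood test, adjusted p below 0.05, with a log2 fold change beyond 1 in either direction), beside 4.27% of all tested genes called in that direction. Their median log2 fold change was 1.90, against -0.002 over all tested genes. Groups that did not overlap were found for 5 of 5 genes, beside 20% of tested genes with all T + E2 mice above all CON mice. In bulk tissue, more red cells and more RNA per red cell cannot be told apart.

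Hba-a1 (ENSMUSG00000069919, chr11:32283511-32284465, plus strand) encodes the adult alpha chain. Its counts were 315, 236 and 263 in CON replicates 1 to 3 and 539, 1955 and 607 in T + E2 replicates 1 to 3. On the CPM scale these were 20.9, 15.5 and 16.5 against 37.3, 119.0 and 40.5. T + E2 replicates 1 and 3 lay close together above all CON mice, and replicate 2 was 3.06 times their mean. The group means were 17.6 ± 2.84 and 65.6 ± 46.3 CPM (SD, n = 3 each). The log2 fold change was 1.90 (SE 0.43, edgeR adjusted p = 0.0197), and without T + E2 replicate 2 it was 1.14 (SE 0.15, adjusted p = 0.00515).

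Hba-a2 (ENSMUSG00000069917, chr11:32296489-32297298, plus strand) is the second adult alpha gene. Its levels were 13.4, 10.3 and 10.9 CPM in CON mice against 25.2, 71.8 and 25.5 CPM in T + E2 mice. The pattern was that of Hba-a1, with T + E2 replicate 2 at 2.83 times the mean of the others. The log2 fold change was 1.83 (SE 0.41, edgeR adjusted p = 0.0178) and 1.14 without that mouse (adjusted p = 0.00501).

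Hbb-bs (ENSMUSG00000052305, chr7:103826534-103828096, minus strand) encodes an adult beta chain of the C57BL/6 haplotype. Counts were 180, 172 and 138 in CON mice against 368, 1745 and 473 in T + E2 mice. The levels were 11.9, 11.3 and 8.68 CPM against 25.5, 106.2 and 31.6 CPM. Again no T + E2 mouse came near the CON range, and replicate 2 was 3.73 times the mean of the other T + E2 mice. The group means were 10.6 ± 1.72 and 54.4 ± 45 CPM. The log2 fold change was 2.36 (SE 0.52, edgeR adjusted p = 0.0176), and 1.42 without T + E2 replicate 2 (adjusted p = 0.00437).

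Hbb-bt (ENSMUSG00000073940, chr7:103812524-103813996, minus strand), the second adult beta gene of this haplotype, had the lowest counts of the 4 globins in every mouse. It stood at 5.76, 6.90 and 5.78 CPM in CON mice against 16.7, 64.5 and 14.7 CPM in T + E2 mice. The CON mice hardly differed from each other, while T + E2 replicate 2 was 4.12 times the mean of the other T + E2 mice, the widest gap among the 5 genes. The log2 fold change was 2.38 (SE 0.56, edgeR adjusted p = 0.0219), falling to 1.35 without that mouse (adjusted p = 0.00371).

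Alas2 (ENSMUSG00000025270, chrX:150547375-150570638, plus strand, 11 exons in its first annotated transcript) is unrelated to the globins, so its counts do not depend on how reads were divided between near-copies. Counts were 215, 192 and 190 in CON mice against 413, 955 and 358 in T + E2 mice, or 14.2, 12.6 and 11.9 CPM against 28.6, 58.1 and 23.9 CPM. The same mouse was highest, at 2.22 times the mean of the other T + E2 mice, the narrowest gap among the 5 genes. The group means were 12.9 ± 1.18 and 36.9 ± 18.6 CPM. The log2 fold change was 1.51 (SE 0.31, edgeR adjusted p = 0.0133), and 1.02 without T + E2 replicate 2 (adjusted p = 0.00631).

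**Figure D1:**
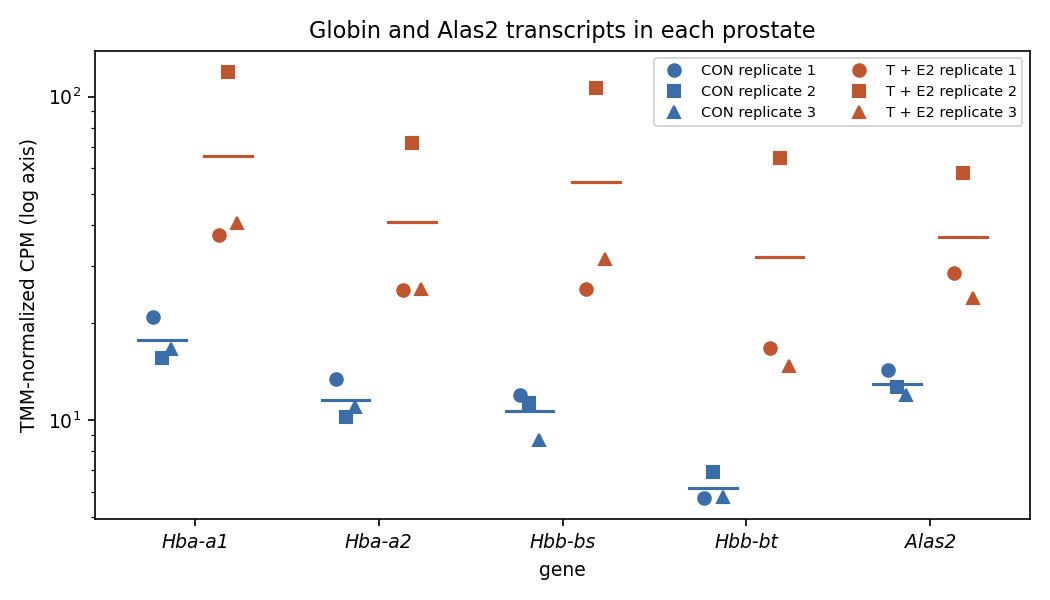
Level of each of the 5 red cell genes in every mouse, in CPM on a log axis, with CON and T + E2 mice side by side and a line at each group mean. Every T + E2 point lies above every CON point, and T + E2 replicate 2 is the highest in each gene (119.0 CPM for Hba-a1 and 58.1 CPM for Alas2).

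These rises were large among all genes without being extreme. Between 1.34% (Hbb-bt) and 2.94% (Alas2) of tested genes rose more. Removing T + E2 replicate 2 lowered each fold change and also lowered each adjusted p, and the 5 genes remained called beside 3.49% of 15844 genes called higher in that comparison. Removing a CON mouse had the opposite effect on the calls. Without CON replicate 3 none of the 5 passed (0 of 5, edgeR adjusted p from 0.0529 to 0.0763, with all 5 at an unadjusted p under 0.05), without CON replicate 2 only Hbb-bs and Alas2 passed (2 of 5), and without CON replicate 1 Hbb-bt was lost (4 of 5, its adjusted p = 0.0626). The fold changes in those comparisons stayed between 1.46 and 2.47 on the log2 scale.

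**Figure D2:**
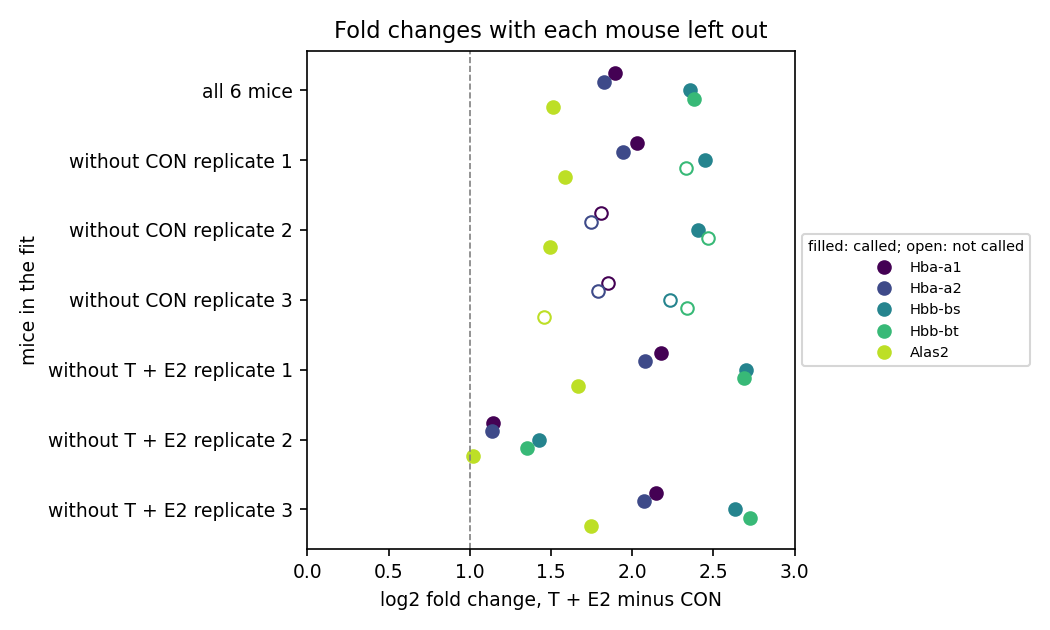
Log2 fold change (T + E2 over CON) of each red cell gene with all 6 mice and with each mouse left out, with filled points for genes that met the criteria for DEGs and open points for those that did not. Leaving out T + E2 replicate 2 gives the lowest fold changes (1.02 to 1.42), which still passed, and leaving out CON replicate 3 gives fold changes of 1.46 to 2.34 that did not pass.

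Summed over the 4 globin genes, the level was 51.9, 44.0 and 41.9 CPM in CON mice against 104.6, 361.6 and 112.2 CPM in T + E2 mice. The lowest T + E2 mouse was 2.01 times the highest CON mouse, and T + E2 replicate 2 was 3.22 times the next mouse. As a share of all counts, globin took 0.00416% (exact 95% binomial interval 0.00385 to 0.00449%) in the lowest CON mouse and 0.0359% (0.0350 to 0.0368%) in T + E2 replicate 2. Without molecular identifiers these intervals cover counting error only. The group means were 45.9 ± 5.28 and 192.8 ± 146.2 CPM (SD, n = 3 each), and the mean log2 level differed by 1.82, or 3.54-fold, and by 1.24 without T + E2 replicate 2. An exact two-sided permutation test gave p = 0.1, the smallest value that 3 mice against 3 allow.

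Ratios of counts within a library do not depend on how libraries are scaled. Alpha over beta globin was 1.94, 1.42 and 1.90 in CON mice against 1.48, 1.12 and 1.43 in T + E2 mice. The ranges overlapped, with T + E2 replicates 1 and 3 above CON replicate 2. The difference of -0.38 in mean log2 ratio gave an exact permutation p of 0.3 (adjusted p = 0.5 over 5 ratios). Within the alpha pair, Hba-a2 over Hba-a1 lay between 0.603 and 0.675 in all 6 mice (exact permutation p = 0.6, adjusted p = 0.7). Within the beta pair, Hbb-bt over Hbb-bs ranged from 0.465 to 0.667, with no order between the groups (exact permutation p = 0.7, adjusted p = 0.7).

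The fold change of Alas2 was the smallest of the 5. Alas2 over summed globin was 0.274, 0.287 and 0.285 in CON mice against 0.273, 0.161 and 0.213 in T + E2 mice. All T + E2 mice were lower, but replicate 1 lay close to the CON mice, and the mouse with the most globin had the lowest ratio. The difference of -0.42 in mean log2 ratio gave the smallest possible exact permutation p of 0.1 (adjusted p = 0.25). Summed globin over summed endothelial markers, a measure of red cell RNA per vessel lining RNA, was 0.205, 0.162 and 0.205 against 0.424, 1.29 and 0.423. The groups did not overlap, and the difference of 1.70 in mean log2 ratio again gave p = 0.1 in the exact permutation test (adjusted p = 0.25). Without T + E2 replicate 2 the differences in mean log2 ratio were -0.25 for alpha over beta, -0.0058 within the alpha pair, -0.08 within the beta pair, -0.23 for Alas2 over globin and 1.16 for globin over endothelial markers.

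**Figure D3:**
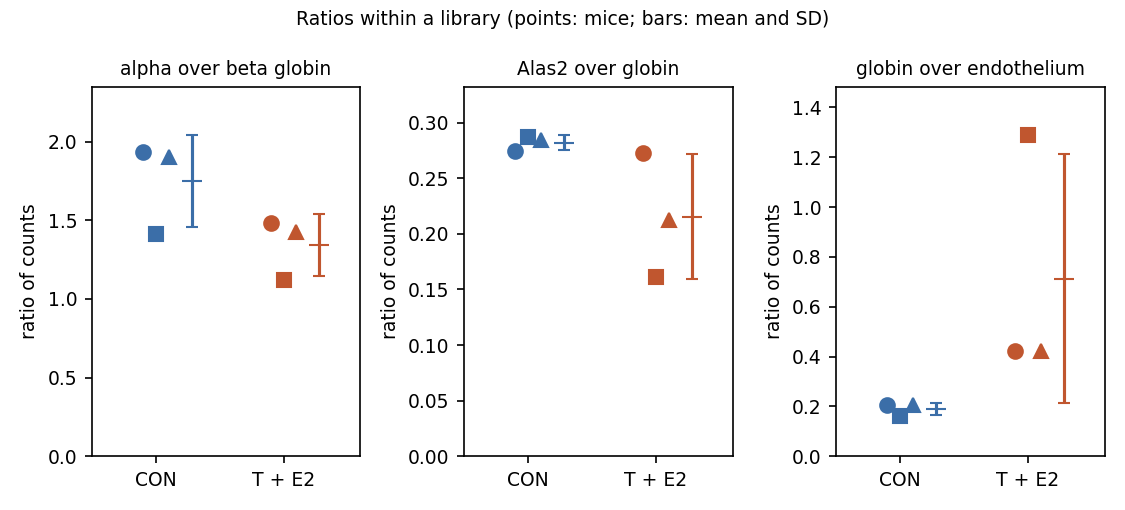
Ratios of alpha over beta globin, Alas2 over summed globin and summed globin over endothelial markers within each library, with points for mice (circle, square and triangle for replicates 1 to 3) and bars for the mean ± SD of each group (n = 3). Globin over endothelial markers separates the groups (at most 0.205 against at least 0.423), while alpha over beta globin overlaps.

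Levels of different genes can be compared only per length. Per kilobase of merged exon, the CON mice had 19.1 to 25.7 CPM of Hba-a1, 15.4 to 20.1 of Hba-a2, 11.3 to 15.5 of Hbb-bs, 8.20 to 9.82 of Hbb-bt and 4.97 to 5.93 of Alas2. Hba-a1 and Hba-a2, and likewise Hba-a2 and Hbb-bs, overlapped in range, whereas Hbb-bt and Alas2 did not overlap with each other or with the genes above them. In T + E2 replicates 2 and 3 Hbb-bs stood above Hba-a2 (138.3 against 107.6 and 41.1 against 38.2 CPM per kilobase). The authors' own FPKM values give the beta genes the other order, with Hbb-bs at 4.97 to 7.0 and Hbb-bt at 8.17 to 10.1 in the CON mice. The gene length implied by the FPKM was 1734 bases for Hbb-bs, against 768 bases of merged exon in GENCODE M21, while for Hbb-bt both were 703 bases. The implied length also exceeded merged exon for Hba-a1 (1193 against 812 bases), Hba-a2 (1048 against 667) and Alas2 (3196 against 2403). By FPKM, Hbb-bs stood below Hba-a2 in T + E2 replicates 2 and 3 (60.79 against 67.95 and 18.41 against 24.6). In the CON mice the FPKM of Hba-a2 overlapped with Hbb-bt, but not with Hba-a1 or Hbb-bs. The order and overlap of the globin genes therefore depend on the length used, and the comparison between groups does not.

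The other globin genes of the alpha and beta clusters were at or near the detection limit. Of 11 further globin genes in the table, 4 had no count in any mouse, among them the embryonic alpha-like Hba-x and the embryonic beta-like Hbb-bh1. The embryonic Hbb-y had 3 counts, all in T + E2 replicate 3, and the theta-like Hbq1a and Hbq1b had at most 2 counts in a mouse. Of the 4 tested, 0 were called by edgeR or DESeq2 (1 at an unadjusted p under 0.05 in edgeR), with a median log2 fold change of -0.45. Cygb, a globin of fibroblasts, had a log2 fold change of 0.39 (adjusted p = 0.135). Mb, the oxygen store of muscle, varied between 9 and 187 counts in the CON mice and between 10 and 123 in the T + E2 mice, without an order between groups.

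No gene next to the globin clusters was called. Within 100 kb of the alpha pair lie 9 other genes, of which 5 were tested and 0 were called by edgeR or DESeq2, with 0 at an unadjusted p under 0.05. Nprl3, whose introns hold the distant enhancers of the alpha genes, had a log2 fold change of -0.15 (adjusted p = 0.275), and Mpg, a DNA repair gene, had 0.23 (adjusted p = 0.209). Around the beta pair 15 of 16 genes had at most 3 counts in every mouse, most of them olfactory receptors and minor globins. The single tested neighbour there, the pseudogene Dnajc19-ps, was not called (0 by edgeR or DESeq2, adjusted p = 0.863).

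Of 25 other red cell genes in the table, 12 passed the filter, 3 rose and 1 fell (beside 4.27% and 3.38% of tested genes), with a median log2 fold change of 0.24 and a summed level of 444 to 479 CPM in the CON mice and 466 to 496 CPM in the T + E2 mice. Rhd, a membrane protein of the Rh blood group complex, had 0.0662 to 0.629 CPM in the CON mice and 3.20 to 4.69 CPM in the T + E2 mice. It rose by 3.44 on the log2 scale (adjusted p = 0.00276). Its CON counts were only 1, 6 and 10, with CON replicate 1 below the detection limit of 3 counts, so the size of this rise is uncertain. Tspan33, a tetraspanin also found in B cells, rose by 1.04 (adjusted p = 0.00179). Bpgm, which makes the bisphosphoglycerate that lowers the oxygen affinity of haemoglobin, rose by 1.00 (adjusted p = 0.0459) with overlapping groups, but not without T + E2 replicate 2 (0.84, adjusted p = 0.144). Kel, a blood group protein, fell by 2.72 (adjusted p = 0.00591), and by 2.33 without T + E2 replicate 2 (adjusted p = 0.0178). In T + E2 replicate 2 Rhd and Tspan33 stood at 1.25 and 1.17 times the mean of the other T + E2 mice, beside 2.83 to 4.12 times for the globins. Without that mouse Rhd rose by 3.33 (adjusted p = 0.0143), and Tspan33, at 0.96 (adjusted p = 0.00904), was below the fold threshold.

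Some defining membrane genes of the red cell, such as Slc4a1 and Epb42, had too few counts for the filter. The membrane skeleton genes Sptb and Ank1 passed it and were not called by edgeR or DESeq2. Sptb had a log2 fold change of -0.55 (edgeR adjusted p = 0.0555), with every T + E2 mouse below every CON mouse. Ank1 had -0.22 (edgeR adjusted p = 0.399), with overlapping groups. Slc4a1, the band 3 anion exchanger, had 1, 2 and 1 counts in CON mice against 11, 27 and 9 in T + E2 mice, at least 5.14-fold higher against a floor of 3 counts per library. It was highest in T + E2 replicate 2, as the globins were, and passed in DESeq2 (adjusted p = 0.00719) and in edgeR with no filter (adjusted p = 0.007). Epb42, protein 4.2 of the membrane skeleton, had 0, 0 and 1 counts against 0, 11 and 2. The nuclear factors of red cell precursors were scarce in both groups, with 4, 7 and 7 against 5, 5 and 3 counts for Klf1 and 1, 0 and 2 against 0, 3 and 0 for Gata1. Slc4a1, Epb42, Sptb, Ank1, Klf1 and Gata1 were chosen for naming after their values were seen.

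No other gene of haem synthesis was called. Of 8 such genes, all tested, 0 were called by edgeR or DESeq2 (4 at an unadjusted p under 0.05 in edgeR), with a median log2 fold change of -0.13. Fech, which inserts iron into the ring, had a log2 fold change of 0.26 (adjusted p = 0.108). Of the 8, 3 had an adjusted p under 0.05 in edgeR, and these were lower in every T + E2 mouse but short of the fold threshold. They were Ppox, the enzyme of the step before Fech (-0.38, adjusted p = 0.0259), Uros (-0.62, adjusted p = 0.0284) and Alad (-0.36, adjusted p = 0.0481). Alas1, the form of the first enzyme used outside red cells, had 0.07 (adjusted p = 0.655), beside 1.51 for Alas2.

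Among 20 tested genes of haem and iron handling, 2 rose and 0 fell (by edgeR and by DESeq2, beside 4.27% and 3.38% of all tested genes in edgeR), with 10 of the 20 at an unadjusted p under 0.05 in edgeR and a median log2 fold change of 0.25. Heph, a ferroxidase that works with iron export, rose by 2.78 (adjusted p = 0.000233), and by 2.74 without T + E2 replicate 2 (adjusted p = 0.00208). Cd163, the macrophage receptor that clears haemoglobin bound to haptoglobin, rose by 1.41 (adjusted p = 0.00758), and by 1.09 without that mouse (adjusted p = 0.0147). Cd163 stood at 28.9, 20.4 and 25.0 CPM in CON mice against 44.1, 91.9 and 61.3 CPM in T + E2 mice, so it was highest in the mouse with the most globin. It is also a general marker of resident macrophages, and their part in its rise was not tested.

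Blood brings platelets and white cells as well, and vessels bring endothelium. Of 14 endothelial genes, all tested, 0 were called by edgeR or DESeq2 (2 at an unadjusted p under 0.05 in edgeR), with a median log2 fold change of 0.04. Their summed level was 205 to 271 CPM in the CON mice and 247 to 281 CPM in the T + E2 mice, overlapping ranges beside globin ranges that did not. Vwf, the clotting factor carrier of endothelium, had a log2 fold change of 0.65 (adjusted p = 0.0233), and Pecam1, a junction protein, had 0.42 (adjusted p = 0.197).

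Of 12 platelet genes 4 were tested and 0 were called by edgeR, with 0 at an unadjusted p under 0.05 and a median log2 fold change of 0.12. The most abundant were Pf4, a granule chemokine (0.57, adjusted p = 0.261), and Itga2b, the fibrinogen receptor subunit (0.07, adjusted p = 0.921). DESeq2, which kept more genes of low count, called 3 of the 12 higher, namely Ppbp, Tubb1 and Clec1b. Counts in CON against T + E2 mice were 1, 5 and 8 against 3, 62 and 23 for Ppbp. They were 0, 0 and 0 against 0, 17 and 7 for Tubb1, and 0, 0 and 0 against 2, 11 and 10 for Clec1b. T + E2 replicate 2 was the highest in each. Summed over the 8 untested genes, counts were 2, 14 and 10 in CON mice against 5, 129 and 57 in T + E2 mice. T + E2 replicate 2 was the highest for platelet and globin transcripts alike, whereas T + E2 replicate 1 had 104.6 CPM of globin and 5 counts over these platelet genes, inside the CON range.

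Of 12 neutrophil genes 4 were tested and 0 were called by edgeR or DESeq2 (1 at an unadjusted p under 0.05 in edgeR), with a median log2 fold change of -0.01. Mmp9, a granule protease, and Il1r2, a decoy receptor for interleukin-1, had log2 fold changes of -0.03 (adjusted p = 0.938) and -0.63 (adjusted p = 0.105). Summed over the 8 untested neutrophil genes, counts were 13, 28 and 26 in CON mice against 0, 59 and 26 in T + E2 mice, overlapping ranges. S100a8, a defining marker among them that was chosen for naming after its values were seen, had 2, 0 and 2 counts against 0, 17 and 7. Retnlg, another of them, had 3, 9 and 11 counts against 0, 14 and 4, without an order between the groups. Of 10 lymphocyte genes 8 were tested and 1 rose (beside 4.27% of all tested genes), with a median of 0.03. It was the B cell receptor subunit Cd79b (2.11, adjusted p = 0.00565), which rose by 2.21 without T + E2 replicate 2 (adjusted p = 0.0181). The part of blood volume, bleeding at dissection and reticulocyte number in the rise of the globins was not tested.

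**Figure D4:**
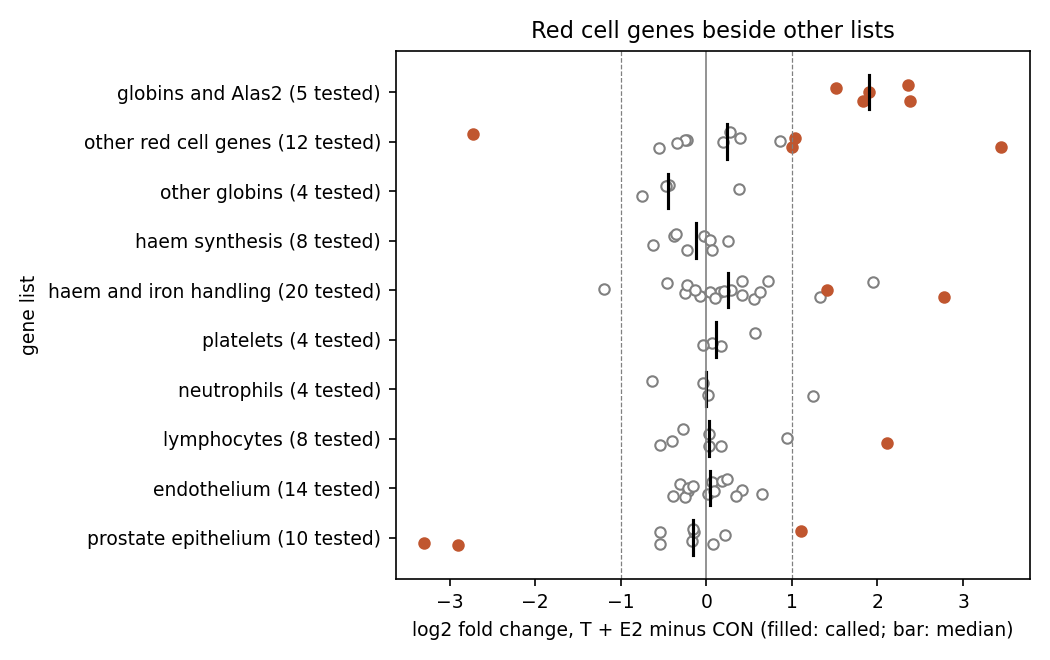
Log2 fold change (T + E2 over CON) of each tested gene in the red cell set and in the other lists, with filled points for called genes, a bar at the median of each list and dashed lines at the fold threshold. The 5 red cell genes lie between 1.51 and 2.38, while the medians of haem synthesis (-0.13), platelets (0.12) and endothelium (0.04) lie near 0.

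The genes most alike to summed globin over the 6 mice were found by the root mean square difference of centred log2 CPM, among 14771 genes with a mean of at least 1 CPM. The 4 globins and Alas2 held the first 5 places, with differences of 0.10 to 0.309 on the log2 scale, and the globins are part of the sum. The next were Sdcbp2, a syntenin (0.328), Ighv1-26, an immunoglobulin heavy chain segment (0.333), Tdo2, a tryptophan-degrading enzyme (0.344), Ccl8, a monocyte chemokine (0.357), and Upk2, a urothelial membrane protein (0.368). Ighv1-26, for example, stood at 5.43, 2.10 and 2.96 CPM in CON mice against 7.26, 25.5 and 6.41 CPM in T + E2 mice. Their likeness describes 6 mice only.

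To see which genes followed globin between mice of a group, log2 summed globin centred within each group was added to the edgeR model. Its values were 0.18, -0.06 and -0.13 in CON mice against -0.63, 1.16 and -0.53 in T + E2 mice, so the term rests mostly on T + E2 replicate 2. It was called at adjusted p under 0.05 for 6 of 15580 genes (0.0385%), of which 3 were globins that make up the term. The other 3 were Yipf6, a Golgi membrane protein (slope adjusted p = 0.0292), Saa1, an acute-phase apolipoprotein (0.0329), and Sprr1a, an epithelial envelope protein (0.0329), and next came Tmed2, a cargo receptor (0.06), and Tfdp2, a partner of E2F factors (0.0873). Saa1 had 1.85, 0.263 and 0.440 CPM in CON mice against 11.6, 200.3 and 11.3 CPM in T + E2 mice. Yipf6 had 45.4, 38.8 and 35.8 CPM against 46.1, 176.8 and 42.4 CPM, so replicates 1 and 3 of the T + E2 group lay near the CON mice, unlike in the globins.

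**Figure D5:**
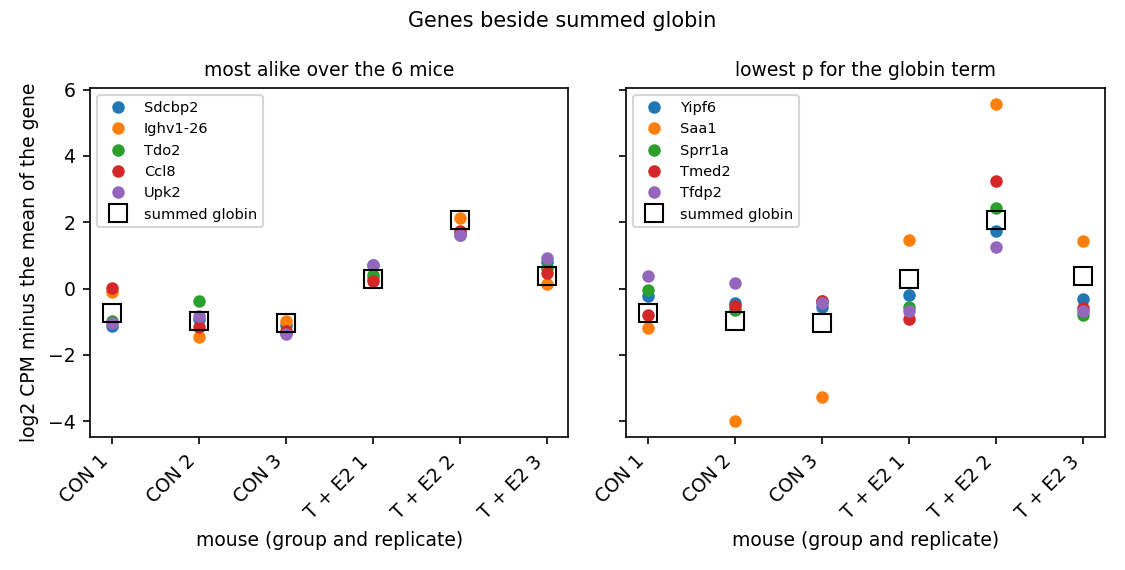
Centred log2 CPM in each of the 6 mice for summed globin, for the genes most alike to it and for the genes with the lowest p for the globin term. T + E2 replicate 2 is the highest mouse in each profile, and in Sprr1a, Tmed2 and Tfdp2 T + E2 replicates 1 and 3 lie within or below the CON range.

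Without T + E2 replicate 2 the globin term was called for 0 genes in edgeR (1129 at an unadjusted p under 0.05), and the adjusted p of the 5 named genes lay between 0.688 and 0.861. With the globin term in the model, 1175 genes were called between the groups, against 1191 without it, and 1120 were called in both.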

How the data were processed

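RNA of 6 prostates (3 CON, 3 T + E2) was sequenced as paired-end TruSeq libraries. The authors deposited 1 table holding, per gene and mouse, whole-number counts without normalization and the FPKM they derived from these counts. TopHat, Bowtie2 and HTSeq are named in the submitters' processing notes. The genome build, annotation, strand setting and treatment of reads with several matches are not given in the sources used here. Coordinates are those of the table and equal GENCODE M21 (GRCm38) for all 5 genes. All 12 value columns belong to the 6 mice.

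The count test was that of edgeR 4.0.16 under R 4.3.3 (filterByExpr, minimum count 10 and minimum total 15, TMM, glmQLFit, glmQLFTest), with group as the only factor and Benjamini-Hochberg adjustment over 15580 genes. The biological coefficient of variation was 18%. Each SE is the fold change on the log2 scale over the square root of its F statistic. Summed globin and ratios were compared by exact two-sided permutation tests over mice (20 relabellings). The study's methods use DESeq2, run here as an alternative (1.42.0), beside limma 3.58.1 on log2(FPKM + 0.1) and log2(FPKM + 1), other scalings, no filter, a replicate block and each mouse left out. The scripts were tested on simulated data. Plots used Python 3.11.15 and matplotlib 3.10.9.

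Named genes are the 5 red cell genes, up to 3 called rises and 3 called falls per list or else its 2 most abundant genes, the 5 genes most alike to summed globin and the 5 with the lowest p for the globin term. Others were chosen after their values were seen, and some genes of the lists are not reported here. The red cell genes and the lists were chosen with earlier results of these data known.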

Additional observations from a re-analysis of the deposited data

How the results depend on the processing

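All 5 red cell genes were called under DESeq2, median-of-ratios scaling, total-count scaling, no filter on low counts, both limma fits and without each T + E2 mouse in turn. Over the mice left out, the number called ranged from 0 (without CON replicate 3) to 5, with 2 without CON replicate 2. The number of all genes called was 561 with limma on log2(FPKM + 1) and 3061 without the fold threshold, against 1191, and 972 to 1152 with a mouse left out. The log2 difference of summed globin ranged from 1.24 to 2.14 with a mouse left out. Hbb-bt over Hbb-bs, at -0.03 and not past the test, turned positive without CON replicate 2 (0.0055), CON replicate 3 (0.07) or T + E2 replicate 3 (0.12), over a range of -0.16 to 0.12. The number of genes following globin was 6 with all mice, 0 with beta globin alone in the term (edgeR), and 0 to 9 with a mouse left out, an alternative added after seeing the data. It was 0 without CON replicate 3 or any 1 of the T + E2 mice, and 2 without CON replicate 1. The causes were not tested.

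The replicate numbers name different mice. Deviations of same-numbered mice correlated at -0.05, 0.03 and 0.05, within the range of -0.18 to 0.14 for differently numbered mice. The numbers thus gave no sign of pairing, which 3 mice per group cannot exclude. With the replicate block 1013 genes and all 5 red cell genes were called (log2 fold changes 1.41 to 2.08, edgeR adjusted p 0.0208 to 0.0428). With 3 mice per group the exact tests cannot go below 0.1, and the p-values of the red cell genes depend on a T + E2 spread set largely by 1 mouse.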
